A study of Homo sapiens with 18 samples.

Results

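A set of 10 genes of hepatoblasts, liver progenitor cells and epithelia was followed in HepG2 cells: PROM1, GPC3, AFP, EPCAM, KRT19, SOX9, SPP1, CDH1, CLDN6 and AGR2. They were taken by symbol from array features assigned to a single gene, the brightest feature being kept where a gene had several, and made up 10 of 18404 genes with such a feature. The 10 were chosen with earlier results of these data known. A larger share of changed genes among them than among all features is therefore no independent result. HepG2 is an established human liver tumour line. The cells carried, after G418 selection, an expression plasmid for thyroid hormone receptor TRa1, one for TRb1, or the empty plasmid, and 6, 12 and 11 independent clones respectively had been combined into 1 pool for each construct (the TRa1, TRb1 and control pools). Cultures of each pool were grown in DMEM with 10% serum stripped of hormones and were exposed over 6 h to ethanol alone (vehicle) or to 100 nM triiodothyronine (T3), the form of the hormone that the receptors bind. Each of the 6 groups was repeated 3 times independently, which gave 18 Affymetrix Human Gene ST arrays. Because there was 1 pool for each construct, the receptor and the particular clones of a pool cannot be told apart, and p-values measure the spread between repeats of these pools. In RNA of whole cultures, fewer cells with a transcript and less transcript per cell cannot be told apart either.

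Hepatoblasts are the fetal precursors of hepatocytes and bile duct cells, and a small bipotent progenitor population with a similar marker set can be found in the adult liver. Hepatocytes silence many of these genes when they mature, and hepatocellular carcinomas often switch some of them on again, which is why AFP and GPC3 serve as tumour markers. Thyroid hormone receptors are nuclear receptors that sit on DNA with and without hormone, and they typically repress their targets without T3 and activate them with it. CDH1 and CLDN6 encode junction proteins of epithelia, and AGR2 encodes a protein disulfide isomerase of secretory epithelia.

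Promoter sequence from RefSeq (GRCh38.p14) was at hand for 5 of the 10 genes, and it is given for the members whose level differed between the pools. Each window is the 250 bases before an annotated transcript start, 5′ to 3′ on the gene's strand. Capitals mark matches to the motifs searched on both strands. The windows are chr4:16084024-16084273 on the minus strand for PROM1 (the first of 4 annotated starts in the table), chr16:3018184-3018433 on the minus strand for CLDN6, chr7:16805000-16805249 on the minus strand for AGR2, chr4:87975464-87975713 on the plus strand for SPP1 and chr4:73435971-73436220 on the plus strand for AFP.
PROM1: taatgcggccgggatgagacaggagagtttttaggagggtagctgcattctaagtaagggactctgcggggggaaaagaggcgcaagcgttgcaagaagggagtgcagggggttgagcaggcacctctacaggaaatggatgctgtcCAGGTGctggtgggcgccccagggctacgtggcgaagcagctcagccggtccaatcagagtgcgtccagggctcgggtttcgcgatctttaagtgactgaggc
CLDN6: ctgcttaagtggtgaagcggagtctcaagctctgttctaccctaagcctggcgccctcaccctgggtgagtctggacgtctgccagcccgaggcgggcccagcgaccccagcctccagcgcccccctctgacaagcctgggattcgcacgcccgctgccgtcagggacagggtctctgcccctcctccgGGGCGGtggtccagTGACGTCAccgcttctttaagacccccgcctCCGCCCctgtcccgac
AGR2: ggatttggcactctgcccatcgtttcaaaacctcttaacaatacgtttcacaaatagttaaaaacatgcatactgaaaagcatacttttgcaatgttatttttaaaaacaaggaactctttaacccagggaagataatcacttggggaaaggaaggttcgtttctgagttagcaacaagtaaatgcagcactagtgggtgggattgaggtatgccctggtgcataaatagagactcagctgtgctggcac
SPP1: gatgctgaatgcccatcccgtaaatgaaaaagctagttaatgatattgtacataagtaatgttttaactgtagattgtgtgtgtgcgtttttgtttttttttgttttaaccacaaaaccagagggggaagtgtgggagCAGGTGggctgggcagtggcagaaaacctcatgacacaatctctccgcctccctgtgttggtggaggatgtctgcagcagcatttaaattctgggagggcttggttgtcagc
AFP: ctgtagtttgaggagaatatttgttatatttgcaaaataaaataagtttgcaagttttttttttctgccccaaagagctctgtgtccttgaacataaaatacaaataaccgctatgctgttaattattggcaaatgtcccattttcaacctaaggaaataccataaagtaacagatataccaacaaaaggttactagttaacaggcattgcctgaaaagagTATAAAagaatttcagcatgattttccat
The hexamer bound by thyroid hormone receptors, AGGTCA, was found in 12.1% of all 35116 promoter windows of this length and in none of the 8 windows of these members. The direct repeat of this hexamer with 4 bases between the copies, known as DR4, was in 0.0142% of all windows. The AFP window held a TATA box (TATAAA, in 10.7% of all windows) from 29 to 24 bases before the start. The CLDN6 window held a GC box (GGGCGG, in 42.6%) from 61 to 56 bases before the start and another on the opposite strand, and a palindromic cAMP response element (TGACGTCA, in 1.65%) from 47 to 40 bases before it. PROM1 and SPP1 each held an E-box of the form CAGGTG (in 17.5%), and the AP-1 motif TGACTCA (in 4.2%) was in none of the 5 windows shown. A PROM1 window of another start, not shown, held it on the opposite strand (TGAGTCA) from 189 to 183 bases before that start. G and C made up 68.0% of the CLDN6 window, 58.8% of the PROM1 window, 44.8% of the SPP1 window, 40.4% of the AGR2 window and 31.6% of the AFP window, against a median of 58.0%. A match describes letters in the window and shows no binding. GPC3, EPCAM, KRT19, SOX9 and CDH1 are named here without a window.

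The deposited log2 values had a median of 5.31 to 5.49 per array. The largest difference among arrays followed the replicate number: the first principal component held 49.2% of the variance and set the 6 arrays numbered 1 (-39.2 to -32.3) apart from those numbered 2 (11.99 to 20.4) and 3 (14.3 to 22.6). Differences were tested with limma on 20546 features with a symbol, and a feature is called here when its Benjamini-Hochberg adjusted p lay below 0.05. Each result is given without a term for the replicate number and, where that changed the call, also with the number as a block. Of the mature hepatocyte genes, ALB lay between 12.5 and 12.9 and TF between 12.4 and 12.8. HPD (10.3 to 10.8), CPS1 (7.40 to 8.77), ASGR1, ASGR2 and CEBPA also stood above the array medians. In contrast, TDO2, F9, CYP3A4, CYP7A1 and CYP2E1 had medians between 2.33 and 5.00, below the array medians. Of the markers of other cell types, PTPRC of leukocytes lay between 2.27 and 2.86 and PECAM1 of endothelium between 3.92 and 4.46, but LYZ (11.4 to 12.1) and CD68 (8.27 to 8.76) of the leukocyte list were well above the array medians. Group means over the 9 endothelial markers lay between 4.44 and 4.52, over the 9 leukocyte markers between 5.30 and 5.39, and over the 8 stellate and fibroblast markers between 4.25 and 4.33. THRA, which encodes TRa1, had a mean of 7.50 in the TRa1 pool without hormone and of 7.96 with it, against 7.01 to 7.07 in the other groups. Over both media, an average added after the data were seen, THRA was higher in the TRa1 pool than in control by 0.69 (adjusted p = 0.0014), and THRB was higher in the TRb1 pool by 0.33 (adjusted p = 0.403, and 0.037 with the block). The THRA difference was 0.44 on vehicle (adjusted p = 0.533, and 0.128 with the block) and 0.95 on T3 (adjusted p = 0.00392). THRB was also higher on T3 than on vehicle, by 0.45 averaged over the 3 pools (adjusted p = 0.0237).

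The members split into those that differed between the pools and those that did not. PROM1, GPC3 and AGR2 stood lower in both receptor pools than in the control pool, SPP1 stood higher in both, CLDN6 stood higher in the TRa1 pool than in both others, and EPCAM and SOX9 had nearly the same mean in all 6 groups. In no pool taken alone did T3 for 6 h move any of the 10 past the threshold.

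In the TRa1 pool on vehicle, 3 of 10 members were called against control, when 0.307% of all features were. These were PROM1 and GPC3, which were lower, and CLDN6, which was higher. With the replicate number as a block, 6 were called (background 2.07%), the same 3 together with AGR2 and CDH1 (lower) and SPP1 (higher). On T3 the count was 3 without the block (background 0.433%), again PROM1, GPC3 and CLDN6, and 7 with it (background 2.83%), when AFP was lower as well. Without the block, PROM1 alone stayed called on vehicle when TRa1 vehicle array 1 or 3, any control vehicle array or control T3 array 3 was left out, and on T3 when TRa1 T3 array 1 or 3 or control T3 array 2 or 3 was. With the block, PROM1, GPC3, CLDN6 and AGR2 kept their calls on both media in 18 of 18 fits that each left out 1 array. The median difference of the 10 members was -0.33 on vehicle and -0.44 on T3, beside 0.00068 and 0.0050 over all features. For 6 of 10 members on vehicle the TRa1 and control values did not overlap (background 7.67%), and for 7 of 10 on T3 (background 10.1%).

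In the TRb1 pool, PROM1 was the 1 member called against control on vehicle (background 0.117%) and on T3 (background 0.156%). Its vehicle call was lost without TRb1 vehicle array 2 or 3 or any 1 control vehicle array, and was kept in 18 of 18 such fits with the block. With the block, PROM1, GPC3 and AGR2 were called lower and SPP1 higher on vehicle, 4 of 10 (background 0.735%). On T3 the block gave 3 of 10 (background 0.871%), PROM1, GPC3 and AGR2, and SPP1 missed the threshold. The values did not overlap for 3 members on vehicle (background 6.59%) and for 4 on T3 (background 7.64%). The members' median difference was -0.11 on both media, beside -0.0035 and 0.0062 over all features. Both receptor pools are set against the same control arrays, so their likeness to each other is not counted as a result.

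Set directly against each other, the receptor pools differed in CLDN6 and PROM1, calls that needed the block. Without it, limma called 0 members on vehicle (background 0%) and 0 on T3 (background 0.0438%), with 3 members (PROM1, AFP and CLDN6) at an unadjusted p under 0.05 on each, beside 2.89% and 2.78% of all features. With the block, CLDN6 was lower and PROM1 higher in the TRb1 pool on vehicle, 2 of 10 (background 0.54%), and on T3 CLDN6 alone was called (background 0.604%). PROM1, AFP and CLDN6 did not overlap between these pools on vehicle (background 5.47%) or on T3 (background 5.85%).

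**Figure D1:**
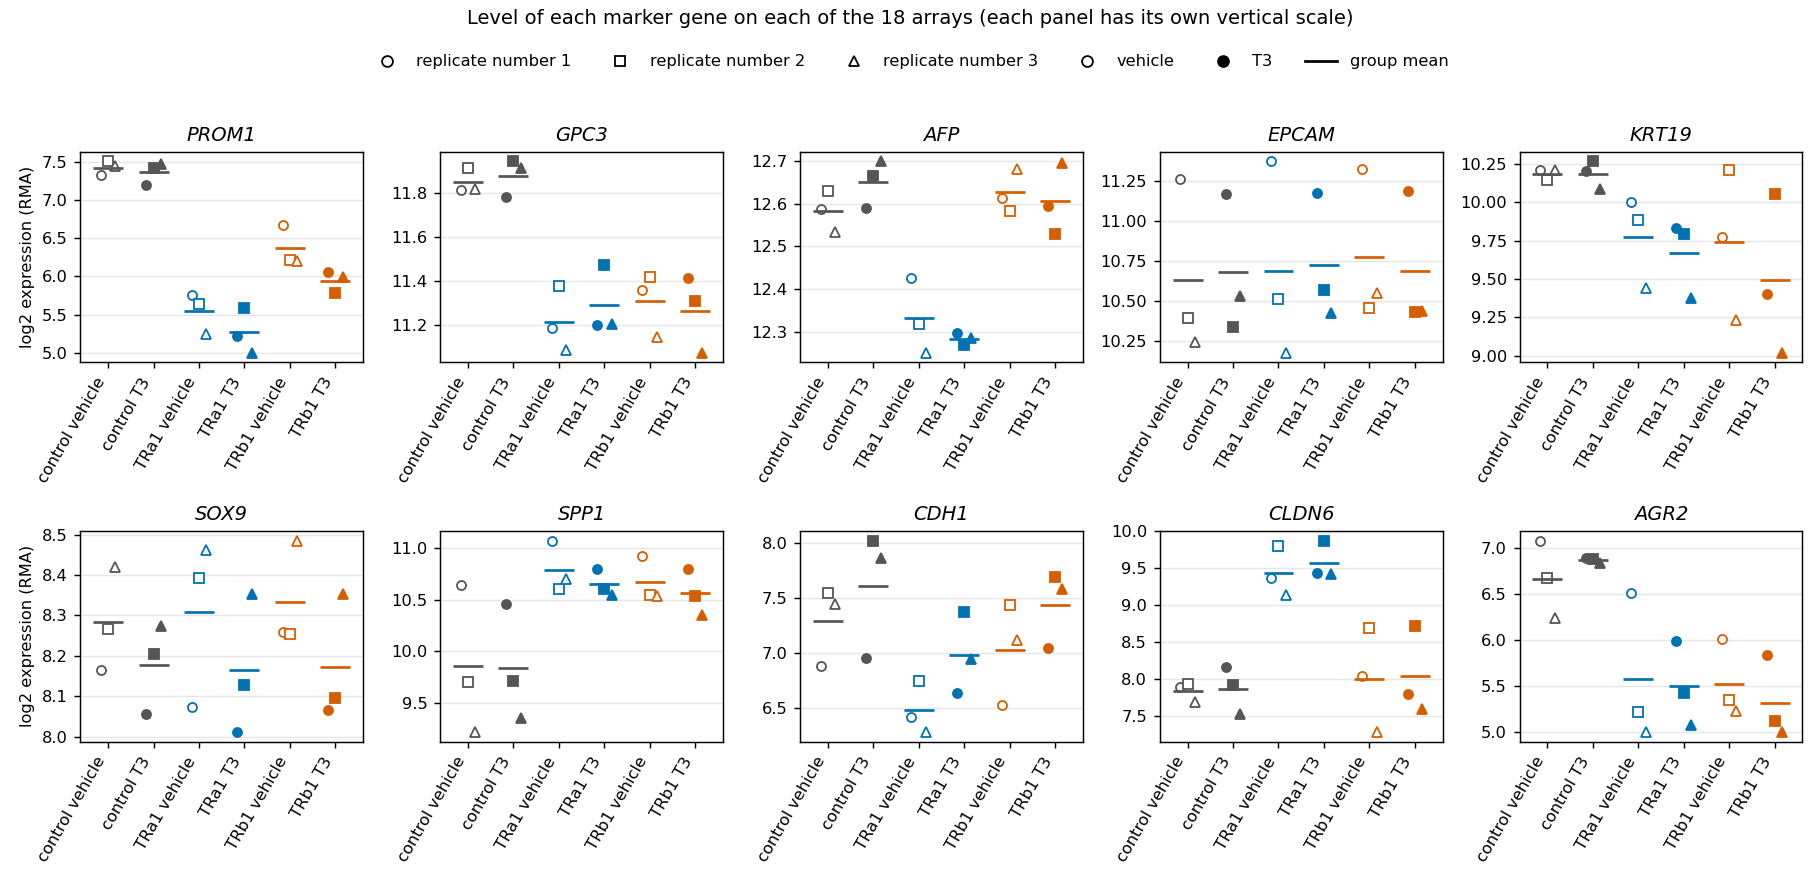
Log2 expression of each of the 10 genes on each array, with 1 panel per gene on its own vertical scale, shape for the replicate number, fill for T3 and a line for the group mean. PROM1 forms 3 levels with the control pool on top, CLDN6 is high in the TRa1 pool alone, and for EPCAM the 6 arrays numbered 1, between 11.17 and 11.37, sit above the other 12 in every group.

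PROM1 (feature 8099476) encodes prominin-1 or CD133, a pentaspan membrane protein of plasma membrane protrusions that is widely used to mark stem and progenitor cells. On vehicle it read 7.32, 7.50 and 7.44 on the control arrays numbered 1, 2 and 3, 6.67, 6.22 and 6.20 on the TRb1 arrays and 5.76, 5.63 and 5.25 on the TRa1 arrays. On T3 the control arrays read 7.20, 7.41 and 7.47, the TRb1 arrays 6.06, 5.78 and 5.99 and the TRa1 arrays 5.22, 5.59 and 5.00. The 3 pools did not overlap on either medium, with control highest and TRa1 lowest. PROM1 was 3.67-fold lower in the TRa1 pool than in the control pool on vehicle (-1.87 ± 0.17 SE on the log2 scale, adjusted p = 2.54e-05) and 4.25-fold lower on T3 (-2.09 ± 0.17, adjusted p = 6.43e-06). In the TRb1 pool it was 2.08-fold lower on vehicle (-1.05 ± 0.17, adjusted p = 0.0182) and 2.67-fold lower on T3 (-1.42 ± 0.17, adjusted p = 0.00163). Between the receptor pools PROM1 was 1.77-fold higher in TRb1 on vehicle (0.82), with an adjusted p of 0.148 that became 0.0293 with the block. On T3 the same difference was 0.67 (adjusted p = 0.531, and 0.0853 with the block). Leaving out 1 of 4 arrays (TRa1 vehicle 2 or 3, TRb1 vehicle 1 or 3) ended the vehicle call between the receptor pools. The TRa1 readings, 5.00 to 5.76, lay near the array medians of all features. The deposited values hold no detection call, so how far the lowest PROM1 readings stood above background was not tested.

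GPC3 (feature 8175234) encodes glypican-3, a heparan sulfate proteoglycan of the fetal liver surface that hepatocellular carcinomas often express. The control arrays read 11.81, 11.92 and 11.82 on vehicle and 11.78, 11.95 and 11.91 on T3. In the TRa1 pool GPC3 read 11.18, 11.38 and 11.08 on vehicle and 11.20, 11.47 and 11.20 on T3, and in the TRb1 pool 11.36, 11.42 and 11.14 and then 11.41, 11.31 and 11.07. All 12 receptor pool arrays lay below all 6 control arrays, and the receptor pools overlapped each other. The TRa1 pool was 1.55-fold lower than control on vehicle (-0.64 ± 0.12, adjusted p = 0.0333) and 1.5-fold lower on T3 (-0.59 ± 0.12, adjusted p = 0.0465). These calls without the block held in 15 and 9 of 26 alternatives, and with the block the adjusted p was 0.00105 and 0.00141. Leaving out 1 array ended the vehicle call for 7 arrays (TRa1 vehicle 1 or 3, TRb1 T3 2, any control vehicle array or control T3 3), and the T3 call for 13 (TRa1 1 or 3 on either medium, TRb1 vehicle 1 or 2, TRb1 T3 2 or any control array). For the TRb1 pool the vehicle difference was -0.54 ± 0.12, with an adjusted p of 0.172, or 0.00731 with the block. On T3 it was -0.62 ± 0.12 (adjusted p = 0.0639, and 0.00237 with the block). Without TRb1 vehicle array 3 or control vehicle array 3, the blocked vehicle call of the TRb1 pool was lost. The interval of the difference between the receptor pools with the block ran from -0.10 to 0.28 on vehicle and from -0.21 to 0.16 on T3.

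AFP (feature 8095646) encodes alpha-fetoprotein, the main plasma protein of the fetal liver. It read 12.59, 12.63 and 12.53 on the control arrays on vehicle and 12.59, 12.66 and 12.70 on T3. The TRb1 arrays read 12.61, 12.58 and 12.68 and then 12.59, 12.53 and 12.69, and overlapped the control arrays on both media. The TRa1 arrays read 12.43, 12.32 and 12.25 on vehicle and 12.30, 12.27 and 12.29 on T3, below every array of the other pools. These are small steps at the top of the array's scale, where the highest value of any feature was 13.7. The difference between TRa1 and control was -0.25 on vehicle (adjusted p = 0.567, and 0.108 with the block). On T3 it was -0.37 or 1.29-fold, with an adjusted p of 0.0951, or 0.0122 with the block. This call was lost without TRa1 T3 array 3, control T3 array 2 or control T3 array 3. TRb1 differed from control by 0.04 on vehicle, with an interval of -0.11 to 0.20 with the block.

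EPCAM (feature 8098439) encodes an adhesion protein of epithelia and liver progenitor cells. Values of this feature followed the replicate number and not the pool or the hormone. The 6 arrays numbered 1 lay between 11.17 and 11.37, whereas arrays numbered 2 ran from 10.34 to 10.57 and arrays numbered 3 from 10.18 to 10.55. Replicate number held 93.6% of the sum of squares of this feature and the 6 groups 1.19%. With the block, the difference between TRa1 and control on vehicle was 0.05 (95% interval -0.16 to 0.27), and that between TRb1 and control was 0.14 (-0.07 to 0.36). A second EPCAM feature (8041853) lay between 9.68 and 10.2, and its difference between TRa1 and control on vehicle was -0.05 (-0.24 to 0.15 with the block). In this second feature the arrays numbered 1 were not set apart in every group. Control T3 array 3 read 10.01 and control T3 array 1 read 9.94. Neither feature was called in any comparison.

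KRT19 (feature 8015349) encodes keratin 19, an intermediate filament protein of bile duct cells that hepatocytes lack. The control arrays were tight, at 10.21, 10.14 and 10.21 on vehicle and 10.20, 10.27 and 10.09 on T3. In the TRa1 pool KRT19 read 10.00, 9.88 and 9.44 on vehicle and 9.84, 9.80 and 9.38 on T3. The TRb1 pool spread most, at 9.77, 10.21 and 9.24 on vehicle and 9.40, 10.05 and 9.02 on T3. All TRa1 values lay below all control values on the same medium, and the TRb1 values did so on T3. KRT19 was not called in any comparison within 1 medium. The differences from control were -0.41 and -0.52 in the TRa1 pool (adjusted p = 0.296 and 0.145 with the block) and -0.45 and -0.69 in the TRb1 pool (0.338 and 0.08 with the block), on vehicle and T3 in turn.

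SOX9 (feature 8009517) encodes a transcription factor of bile duct and progenitor cells. It read from 8.01 to 8.49 over all 18 arrays, and the group means ran from 8.16 to 8.33. On vehicle the TRa1 arrays read 8.07, 8.39 and 8.46, the TRb1 arrays 8.26, 8.25 and 8.49 and the control arrays 8.17, 8.27 and 8.42. All pools overlapped, and the lowest value of each belonged to an array numbered 1 or 2. The difference from control was 0.02 in the TRa1 pool (95% interval -0.13 to 0.18 with the block) and 0.05 in the TRb1 pool (-0.11 to 0.20).

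SPP1 (feature 8096301) encodes osteopontin, a secreted phosphoprotein of bile duct cells and of many tumours. On vehicle the control arrays read 10.64, 9.71 and 9.21, the TRa1 arrays 11.07, 10.60 and 10.70 and the TRb1 arrays 10.92, 10.55 and 10.53. On T3 the control arrays read 10.46, 9.71 and 9.35, the TRa1 arrays 10.79, 10.61 and 10.55 and the TRb1 arrays 10.80, 10.54 and 10.35. Control array 1 stood apart from control arrays 2 and 3 on both media and reached into the range of both receptor pools on vehicle and of the TRb1 pool on T3. Within each replicate number SPP1 was higher in both receptor pools than in control, by 0.43, 0.90 and 1.49 for TRa1 on vehicle and by 0.28, 0.84 and 1.32 for TRb1. The TRa1 difference was 0.94 ± 0.30 on vehicle, with an adjusted p of 0.512, or 0.0102 with the block, and 0.81 ± 0.30 on T3 (0.68, and 0.0203 with the block). The TRb1 difference was 0.81 ± 0.30 on vehicle, with an adjusted p of 1, or 0.0469 with the block, and 0.72 ± 0.30 on T3 (1, and 0.0762 with the block). The blocked vehicle call of the TRb1 pool remained in 4 of 18 fits that each left out 1 array. The blocked TRa1 call was lost on vehicle without TRa1 vehicle array 3 or control vehicle array 2 or 3, and on T3 without TRa1 T3 array 2 or 3 or control T3 array 2 or 3.

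CDH1 (feature 7996837) encodes E-cadherin, the adhesion protein of epithelial adherens junctions. On vehicle the control arrays read 6.89, 7.55 and 7.45, the TRb1 arrays 6.53, 7.44 and 7.12 and the TRa1 arrays 6.42, 6.75 and 6.28. On T3 the control arrays read 6.95, 8.02 and 7.86, the TRb1 arrays 7.05, 7.69 and 7.58 and the TRa1 arrays 6.64, 7.37 and 6.95. The TRa1 and control values did not overlap on vehicle and overlapped on T3 through control array 1, and the arrays numbered 1 were the lowest of all groups but TRa1 on vehicle. The TRa1 difference from control was -0.81 ± 0.30 on vehicle, with an adjusted p of 0.707, or 0.00518 with the block. On T3 it was -0.63 ± 0.30 (0.984, and 0.0227 with the block). The blocked T3 call was lost without any 1 of the 3 TRa1 T3 arrays or of control T3 arrays 2 and 3. In the TRb1 pool the difference was -0.27 on vehicle (95% interval -0.56 to 0.03 with the block) and -0.17 on T3 (-0.47 to 0.12).

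CLDN6 (feature 7998898) encodes claudin-6, a tight junction protein of embryonic epithelia that is silent in most adult tissues. It read 9.37, 9.81 and 9.15 on vehicle and 9.43, 9.87 and 9.42 on T3 in the TRa1 pool. In the control pool it read 7.90, 7.93 and 7.69 and then 8.16, 7.93 and 7.53. The TRb1 pool spread more widely, at 8.05, 8.70 and 7.29 on vehicle and 7.81, 8.73 and 7.60 on T3. Every TRa1 value lay above every value of the other pools, and the TRb1 values ran both above and below control. CLDN6 was 3.03-fold higher in the TRa1 pool than in control on vehicle (1.60 ± 0.32, adjusted p = 0.0467) and 3.25-fold higher on T3 (1.70 ± 0.32, adjusted p = 0.0256). Without the block the vehicle call held in 7 of 26 alternatives and the T3 call in 19. The vehicle call was lost without any 1 of the TRa1 arrays or the control arrays on either medium, TRb1 vehicle array 1 or TRb1 T3 array 1, and the T3 call without any 1 TRa1 T3 array or control T3 array 2 or 3. With the block the adjusted p became 3.57e-04 and 1.49e-04. Between TRb1 and control the difference was 0.17 on each medium, with an interval of -0.25 to 0.59 on vehicle with the block. In the TRb1 pool CLDN6 was 2.69-fold lower than in the TRa1 pool on vehicle (-1.43 ± 0.32, adjusted p = 0.226, and 0.00278 with the block) and 2.89-fold lower on T3 (-1.53 ± 0.32, adjusted p = 0.19, and 0.00191 with the block).

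AGR2 (feature 8138381) encodes anterior gradient 2, which helps to fold mucins in the endoplasmic reticulum of secretory epithelia. On vehicle the control arrays read 7.08, 6.67 and 6.24, the TRa1 arrays 6.51, 5.22 and 4.99 and the TRb1 arrays 6.00, 5.34 and 5.22. On T3 the control arrays read 6.89, 6.88 and 6.84, the TRa1 arrays 5.98, 5.42 and 5.08 and the TRb1 arrays 5.84, 5.11 and 5.00. Array 1 was the highest of every group, and it was the one array through which TRa1 and control overlapped on vehicle. In the TRa1 pool AGR2 was 2.12-fold lower than in control on vehicle (-1.09 ± 0.36, adjusted p = 0.533, and 0.00523 with the block) and 2.6-fold lower on T3 (-1.38 ± 0.36, adjusted p = 0.166, and 6.71e-04 with the block). In the TRb1 pool it was 2.2-fold lower on vehicle (-1.14 ± 0.36, adjusted p = 0.812, and 0.00767 with the block) and 2.94-fold lower on T3 (-1.55 ± 0.36, adjusted p = 0.197, and 4.8e-04 with the block). The blocked vehicle call of the TRb1 pool was lost without control vehicle array 2 (adjusted p = 0.0649). The receptor pools differed by -0.05 on vehicle, with an interval of -0.45 to 0.34 with the block. The lowest receptor pool readings, 4.99 to 5.22, lay below the array medians, and whether they stood above background was not tested, so the folds of AGR2 hold for the deposited values alone.

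**Figure D2:**
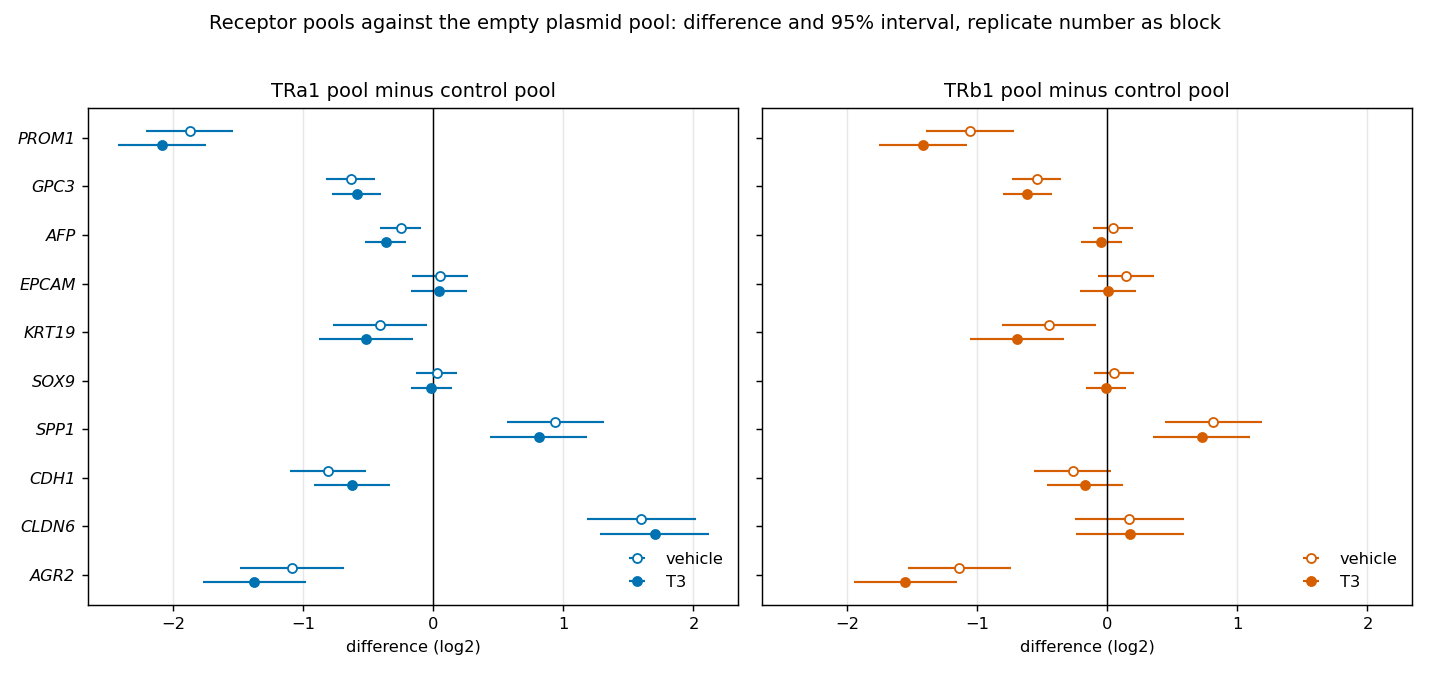
Difference of each gene between a receptor pool and the control pool in log2 units, on vehicle (open) and T3 (filled), with the 95% interval of the limma fit that has the replicate number as a block. PROM1, GPC3 and AGR2 lie left of 0 and SPP1 right of 0 in both panels, and CLDN6 lies at 1.60 and 1.70 in the TRa1 panel but at 0.17 in the TRb1 panel.

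Averaging vehicle and T3, a comparison added after the data were seen, gave 6 arrays against 6. Without the block, 5 members were called between TRa1 and control (background 1.38%): PROM1, GPC3, AFP, AGR2 and CLDN6. With it there were 8 (background 7.54%), with KRT19 and CDH1 lower and SPP1 higher in addition. Between TRb1 and control 3 were called (background 0.38%), PROM1, GPC3 and AGR2, and 5 with the block (background 3.61%), with KRT19 lower and SPP1 higher. Among the comparisons made, KRT19 passed in these averaged ones alone, at -0.46 ± 0.12 for TRa1 (adjusted p = 0.382, and 0.0282 with the block) and -0.57 ± 0.12 for TRb1 (0.359, and 0.0153 with the block), with the SE of the blocked fit. The TRa1 call of KRT19 was lost without any of 6 single arrays, and the TRb1 call without TRb1 T3 array 3. Between the receptor pools 3 members were called (background 0.35%), and all 3 kept the signs given above: PROM1 at 0.75 ± 0.12 (adjusted p = 0.00969) and AFP at 0.31 ± 0.06 (adjusted p = 0.0379) were higher in the TRb1 pool, and CLDN6 at -1.48 ± 0.23 (adjusted p = 0.00614) was lower. The AFP call held in 7 of 26 alternatives and the CLDN6 call in 25. With the block 4 members were called (background 2.2%), the fourth being CDH1. It was higher in the TRb1 pool by 0.50 ± 0.10, with the SE of the blocked fit (adjusted p = 0.974 without the block, and 0.0111 with it).

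The 10 genes had small T3 differences in each pool, the largest of them 0.50 for CDH1 in the TRa1 pool. Without the block limma called 0 of 10 members in the TRa1 pool (background 0.131%), the TRb1 pool (background 0.073%) and the control pool (background 0.00973%). At an unadjusted p under 0.05 there were 0, 1 (PROM1) and 0, beside 2.55%, 2.22% and 2.03% of all features. With the block there were again 0 calls (backgrounds 0.667%, 0.477% and 0.0973%), and 1, 3 and 1 members had an unadjusted p under 0.05, as had 6.79%, 6.18% and 5.95% of all features. CDH1 was higher on T3 in 9 of 9 same-numbered pairs of arrays, by 0.07 to 0.67, as were 2.04% of all features. Its differences were 0.50 ± 0.14 in the TRa1 pool, 0.41 ± 0.14 in the TRb1 pool and 0.32 ± 0.14 in the control pool, with adjusted p values of 0.194, 0.468 and 0.823 with the block. Averaged over the 3 pools, which was added after the data were seen, CDH1 stood 0.41 higher on T3, with an adjusted p of 1 without the block and of 0.0115 with it. It was the only one of the 10 members so called, when 1.69% of features were (0.423% without the block, where no member was). SOX9 was lower in 9 of 9 pairs, by 0.06 to 0.27, as were 1.8% of all features. Its mean over the pools, -0.14, had an adjusted p of 0.158 with the block.

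PROM1 and KRT19 were lower on T3 in 8 of 9 pairs, and the T3 difference of PROM1 was -0.27 in the TRa1 pool, -0.42 in the TRb1 pool and -0.06 in the control pool. The difference between the TRb1 and control responses of PROM1 was -0.36 (95% interval -0.84 to 0.11 with the block). For AGR2 the TRb1 response minus the control response was -0.41 (-0.98 to 0.15), and for CLDN6 it was 0.0030 (-0.59 to 0.59). In the 3 comparisons of responses between pools, limma called 0 members in either fit (background 0% in each without the block, and 0.0292% for TRa1 against control with it). An unadjusted p under 0.05 was reached by 0 members in either fit. Of all features, 1.39% (TRa1 against control), 1.34% (TRb1 against control) and 1.09% (TRb1 against TRa1) reached it without the block. With the block these shares were 3.75%, 4.06% and 3.01%. An absent call at 3 arrays a group does not show equal responses, as the widths of these intervals show. The other members had T3 differences of either sign over the 9 pairs, with medians between -0.17 (AGR2) and 0.06 (CLDN6).

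**Figure D3:**
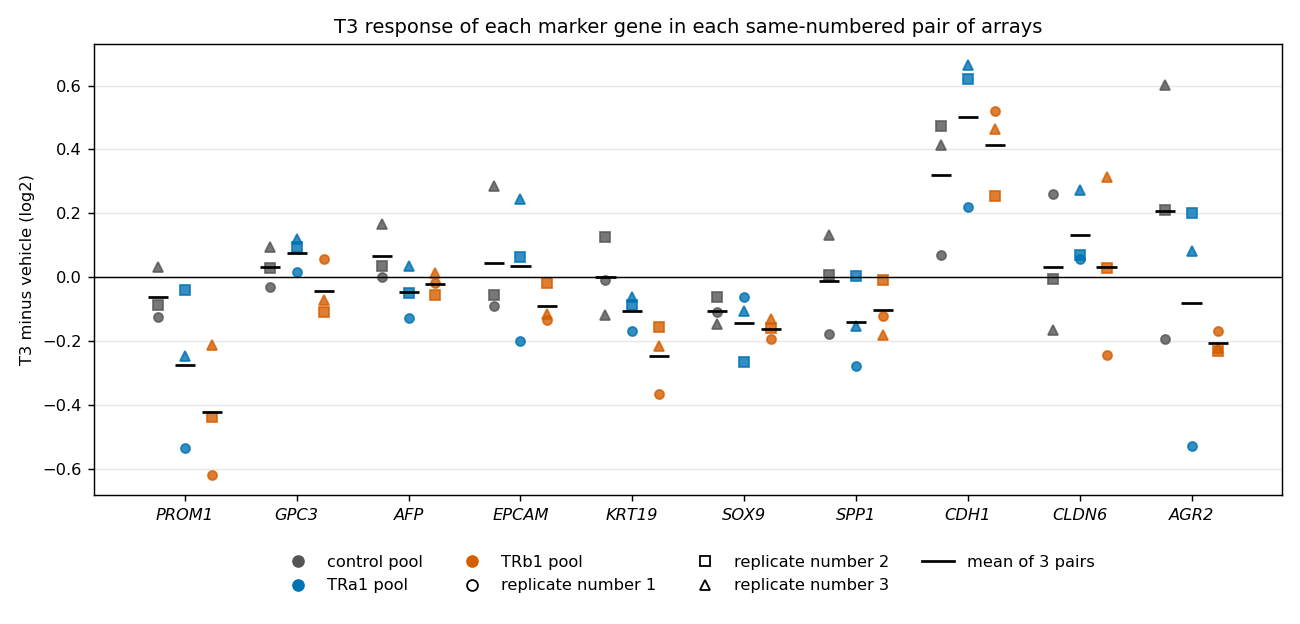
T3 minus vehicle in log2 units for each gene in each of 9 same-numbered pairs of arrays, coloured by pool and shaped by replicate number, with a line at the mean of 3 pairs. CDH1 is above 0 in 9 of 9 pairs and SOX9 below 0 in 9 of 9, and AGR2 runs from -0.53 to 0.60.

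The 10 genes differed in how much of their spread lay between groups. The 6 groups held 95.7% of the sum of squares of PROM1, 89.4% of AFP, 86.9% of GPC3 and 81.1% of CLDN6. They held 70.2% for AGR2, 57.6% for SPP1, 55.1% for CDH1 and 47.4% for KRT19, and less for SOX9 (23.5%) and EPCAM (1.19%). The median over all features was 20.0%. Replicate number held 65.6% of the spread of SOX9, 36.9% of CDH1 and 22.6% of AGR2 (median of all features 37.3%), and 0.60% of PROM1. Of all 20546 features, 4.96% were called in the test over the 6 groups with the block. PROM1 ranked 20 in it, CLDN6 70, AGR2 111, GPC3 121, CDH1 238, SPP1 372 and AFP 524, all of them called, and KRT19 (1220), SOX9 (5006) and EPCAM (17811) were not.

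**Figure D4:**
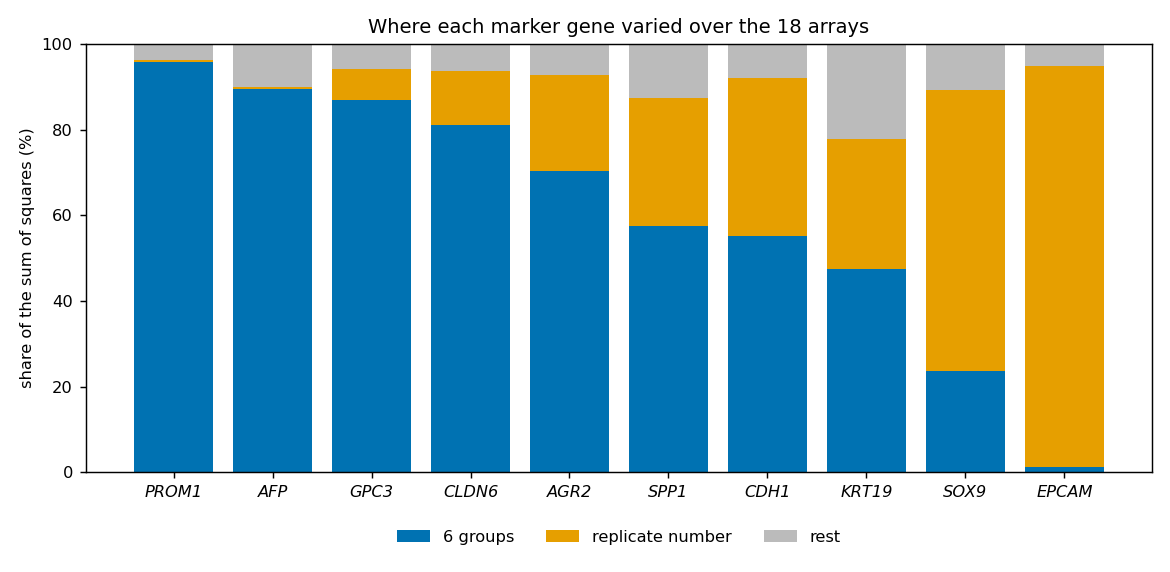
Share of each gene's sum of squares over the 18 arrays, in percent, that lay between the 6 groups, between the replicate numbers and in the rest. Groups hold most of the bar for PROM1 (95.7%), AFP, GPC3 and CLDN6, and the replicate number holds 93.6% of the EPCAM bar.

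Other genes of the same roles were read from lists, and calls are given for comparisons within 1 medium or 1 pool. Calls of list genes in other comparisons, such as those averaged over media or pools, are left out, although averaged calls of the members are given above. Genes called there include AFM, TBX3, GPC1, KRT23, SOX4, ANXA4, CLDN4 and TFF3. Further list genes with a call that is not given below are S100A4 and ACTA2 (mesenchymal) and APOA1 and CEBPA (mature hepatocyte). The same holds for LYVE1 (endothelial) and CD68 (leukocyte). Where the only p given is one with the block, the gene was not called without it. Of 16 other hepatoblast and fetal liver genes 12 were measured, and on each medium limma called 0 of them against control in either receptor pool, with or without the block (background 0.117% to 2.83%). With the block, 4 or 5 of the 12 had an unadjusted p under 0.05 in each of these comparisons, when 10.8% to 14.8% of all features did, and 0 to 2 did without it (3.51% to 5.14% of all features). DLK1, a Notch-family surface protein of hepatoblasts, was higher in the TRb1 than in the TRa1 pool by 0.49 on vehicle (adjusted p = 0.414, and 0.00656 with the block) and by 0.44 on T3 (0.697, and 0.0133 with the block). AKR1C3, an aldo-keto reductase, differed by 0.42 on vehicle and 0.42 on T3 in the same direction (0.0293 and 0.0288 with the block). These were 2 of the 12 called with the block on each medium (background 0.54% and 0.604%). The median difference of the 12 genes between TRa1 and control on vehicle was 0.08, beside -0.33 for the 10 members. Because members and lists were chosen with earlier results of these data known, this gap is not counted as a result.

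Of 21 other biliary and progenitor markers 19 were measured. JAG1, a Notch ligand of the developing bile duct, was lower on T3 by 0.35 in the TRa1 pool and by 0.44 in the TRb1 pool, called with the block alone (adjusted p = 1 in each pool without it, and 0.0408 and 0.00861 with it). It was also lower in the TRa1 pool than in control, at -0.40 on vehicle (0.00938 with the block) and -0.63 on T3 (1.49e-04 with the block), and in the TRb1 pool on T3, at -0.42 (0.0107 with the block). NOTCH2, a receptor for JAG1, was higher on T3 in the TRa1 pool than in control by 0.51 (0.0264 with the block) and in the TRb1 pool by 0.64 (0.0142 with the block). ALCAM, an adhesion protein, was lower by 0.37 in the TRb1 pool on T3 (0.0357 with the block). The other 16 were not called in these comparisons. With the block, 1 of the 19 on vehicle and 2 on T3 were called in the TRa1 pool against control (background 2.07% and 2.83%). In the TRb1 pool on T3, 3 were called against control (background 0.871%). For T3 against vehicle the background with the block was 0.667% in the TRa1 pool and 0.477% in the TRb1 pool.

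Among 33 measured genes of 38 other junction and keratin genes, CLDN2 was the only one called in these comparisons. This claudin of leaky tight junctions was lower in the TRa1 pool on vehicle than in control by 0.36 (adjusted p = 0.0438 with the block) and higher in the TRb1 than in the TRa1 pool by 0.43 (0.0375 with the block), the opposite sign to CLDN6 in both. The background with the block was 2.07% and 0.54% in turn, and 1 call among 33 genes is not read as a result about the list. The CLDN2 group means, 4.99 to 5.43, lay near or below the array medians, and whether they stood above background was not tested. Of 17 mesenchymal genes 16 were measured, and SPARC, a secreted matrix protein, was called without the block. It was higher in the TRa1 pool by 1.25 on vehicle (adjusted p = 0.0357) and 1.19 on T3 (adjusted p = 0.0428), and in the TRb1 pool by 0.87 and 0.88 (0.0264 and 0.0211 with the block). CDH2, or N-cadherin, was lower in the TRb1 pool on T3 by 0.36 (0.0493 with the block). Against control, 1 of the 16 was called in the TRa1 pool on each medium in either fit (background 0.307% to 2.83%). In the TRb1 pool the block gave 1 on vehicle and 2 on T3 (background 0.735% and 0.871%). The 12 measured secretory genes related to AGR2, out of 14, had 0 limma calls with and without the block in the 6 comparisons between pools within 1 medium. Of all features, 0% to 2.83% were called in these comparisons. At an unadjusted p under 0.05 there were 0 to 2 of the 12, beside 2.78% to 14.8% of all features. The median difference of the 12 between TRa1 and control was -0.0039 on vehicle.

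Of 22 mature hepatocyte genes 19 were measured. TTR, or transthyretin, a carrier of thyroid hormone, was lower in the TRa1 pool than in control by 0.59 on vehicle (adjusted p = 0.211, and 5.05e-04 with the block) and by 0.81 on T3 (adjusted p = 0.0245). Between the receptor pools TTR was higher in TRb1 by 0.58 on vehicle and 0.68 on T3 (0.00191 and 3.57e-04 with the block). ALB and CYP7A1, the first enzyme of bile acid synthesis, were lower in the TRa1 pool on T3, at -0.27 and -1.10 (0.0467 and 0.0171 with the block). The CYP7A1 group means, 3.77 to 4.87, lay below the array medians, and whether they stood above background was not tested. PCK1, which opens gluconeogenesis, was higher on T3 in the TRb1 pool by 1.63 (adjusted p = 0.0418) and in the TRa1 pool by 1.02 (0.0139 with the block). Among the T3 cultures PCK1 was also higher than in control in the TRa1 pool, by 0.93 (0.0122 with the block), and in the TRb1 pool, by 1.59 (adjusted p = 0.0311). G6PC1, the last enzyme of the pathway, was higher on T3 by 1.35 and 0.90 in the TRa1 and TRb1 pools (5.56e-04 and 0.0216 with the block). The median of the 19 genes was 0.01 between TRa1 and control on vehicle. With the block, 1 of the 19 on vehicle and 4 on T3 were called in the TRa1 pool against control (background 2.07% and 2.83%). In the TRb1 pool these counts were 0 and 1 (background 0.735% and 0.871%). Between the receptor pools 1 was called on each medium (background 0.54% and 0.604%). For T3 against vehicle the background with the block was 0.667% in the TRa1 pool and 0.477% in the TRb1 pool. Of the marker lists of other cell types, LYZ, or lysozyme, of the leukocyte list was lower in the TRa1 pool by 0.37 on vehicle and 0.47 on T3 (0.0335 and 0.00569 with the block). PDGFRB of the stellate list was lower there on T3 by 0.38 (0.025 with the block). Each was the 1 gene of its list called there, beside 2.07% of all features on vehicle and 2.83% on T3 with the block. In the comparisons between pools within 1 medium limma called 0 of the 9 endothelial markers with or without the block (background 0% to 2.83%). At an unadjusted p under 0.05 there were 0 to 2 of the 9, beside 2.78% to 14.8% of all features.

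For the 3 members with the strongest difference over the groups, the genes with the most similar pattern were sought after subtracting the mean of each replicate number. Over 18 arrays, PROM1 was followed most closely by GDA, or guanine deaminase (r = 0.949), PDLIM5 (r = 0.943) and the amino acid transporter SLC38A4 (r = 0.940). GDA was lower than control by 0.97 in the TRa1 pool and by 0.65 in the TRb1 pool on vehicle (adjusted p = 0.0357 and 0.612, and 0.00117 and 0.0397 with the block). The GDA group means, 4.24 to 5.21, lay below the array medians, and whether they stood above background was not tested. CLDN6 was followed by PAM, a peptide amidating enzyme (r = 0.951), the complement protease C1S (r = 0.950) and the anion transporter SLC22A7 (r = 0.946). C1S and SLC22A7 were higher in the TRa1 pool than in control on vehicle by 0.88 and 1.13 (adjusted p = 0.197 and 0.0137, and 1.11e-04 and 3.4e-05 with the block), and differed by 0.11 and 0.15 in the TRb1 pool (0.741 and 0.674 with the block). AGR2 was followed by the quinone reductase CRYZ (r = 0.971), the collagen processing protein PCOLCE2 (r = 0.957) and the isoleucyl-tRNA synthetase IARS1 (r = 0.957). PCOLCE2 was lower than control by 0.91 in the TRa1 pool and by 0.92 in the TRb1 pool on vehicle (adjusted p = 0.581 and 1, and 1.18e-04 and 1.75e-04 with the block), whereas the IARS1 differences of -0.12 and -0.14 did not pass (0.431 and 0.45 with the block). The arrays share pools and control arrays, these genes were picked from all features for the likeness, and the correlations carry no test.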

How the data were processed

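RNA of 18 HepG2 cultures was hybridised to Affymetrix Human Gene ST arrays of 1 colour, 3 for each of 6 groups. The deposited table holds log2 values for 32321 features, which, per the submitters' processing notes, the authors made with RMA (R 2.7.1). RMA corrects background, sets all arrays to 1 distribution and summarises probes, so a change shared by most genes would be removed. Symbols from the platform annotation covered 20546 features, 19158 with 1 gene and 1388 with several, and 11775 had none. Nothing was filtered on level.

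Here, limma 3.58.1 in R 4.3.3 was fitted to those 20546 features over the 6 groups (moderated two-sided tests, Benjamini-Hochberg adjustment within a comparison, threshold 0.05). The median standard error of a difference was 0.157, and 0.107 with the replicate number as a block. The number of arrays, 3 a group, limits the precision, and depth has no meaning for arrays. Whether the numbers pair the arrays was checked on deviations from group means: 45 of 45 same-number pairs correlated positively (lowest 0.259), other pairs had a median of -0.483, and 18 of 18 arrays correlated best with their own number. Deviations from a group mean cancel within the group, which pushes the other pairs to negative values. The 3 results are therefore not separate evidence. Because every same-number correlation was over 0.1, blocked values stand beside results they change.

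The members and gene lists were chosen with earlier results of these data known. Of 155 entries in the 9 other lists 137 matched. Named were all members, up to 4 called genes for each list and comparison, and the 3 genes most like each of the 3 members with the largest F over groups, and THRA and THRB. Comparisons averaged over media or pools, fits without arrays numbered 1 and single-array omissions in the blocked fit were added after the data were seen. Alternatives were the block, array weights, median centring, a filter on dim features, features without a symbol, the compared groups alone, an intensity trend, the second EPCAM feature and leaving out each array. Promoters came from RefSeq (GRCh38.p14). The genome build of the array annotation is not given in the sources used here.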

Additional observations from a re-analysis of the deposited data

How the results depend on the processing

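No difference of a member that was called with or without the block changed sign in any of 1060 values under the alternatives (41 of 160 differences). Many of these values could not change sign, so the count does not measure stability. The block, intensity trend, choice of features, fit of compared groups alone and omission of an array outside the comparison leave the difference itself unchanged. Of the 119 uncalled differences, 79 changed sign under some setting. PROM1 between TRa1 and control kept its call in 26 of 26 alternatives on vehicle and on T3. CLDN6 kept it in 7 of 26 on vehicle and 19 of 26 on T3, and GPC3 in 15 and 9. PROM1 between TRb1 and control kept it in 19 and 25.

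With the replicate number as a block, which the data pair, the counts of members called became 6 and 7 for TRa1 against control on vehicle and T3 (3 each without it), 4 and 3 for TRb1 against control (1 each), 2 and 1 for TRb1 against TRa1 (0 each), 1 for T3 averaged over the pools (0), and 8 and 5 for TRa1 and TRb1 against control averaged over media (5 and 3). The block ended no call in the comparisons between pools. Median centring left 1 member for TRa1 and 0 for TRb1 against control on vehicle, beside 57 and 23 of all features (63 and 24 before). Including features without a symbol left 1 for TRa1 on vehicle and 1 on T3, beside 49 and 67 of all features. Array weights gave 5 for TRa1 and 3 for TRb1 against control on T3, beside 222 and 60 of all features (89 and 32 before). Fitting only the compared groups left 0 for TRb1 against control on vehicle and 0 on T3, where 0 of all features were called too. For TRb1 against TRa1 averaged over media it left 1, beside 33 of all features (72 before). Without arrays numbered 1, TRb1 against control had 2 on vehicle and 2 on T3, beside 19 and 24 of all features. The averaged TRb1 against TRa1 had 0, beside 61 of all features.

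Leaving out each array in turn gave 1 to 3 members for TRa1 against control on each medium. Of all features, 29 to 64 on vehicle and 44 to 90 on T3 were called there. TRb1 against control had 0 to 1 on vehicle and 1 to 2 on T3, beside 9 to 26 and 15 to 35 of all features. TRb1 against TRa1 had 0 on each medium, beside 0 to 3 and 1 to 11 of all features. Every T3 comparison had 0, beside 0 to 92 of all features over these comparisons. Averaged over media the members' ranges were 4 to 7, 2 to 3 and 2 to 3, beside 169 to 279, 56 to 83 and 43 to 70 of all features. In the blocked fit the members' ranges were 5 to 6 and 4 to 7 for TRa1 against control and 2 to 4 and 3 to 4 for TRb1 against control. They were 1 to 3 and 1 for TRb1 against TRa1, and 0 to 1 for T3 in the TRa1 pool. Counts over all features were not taken for these blocked omissions, so no background stands beside them.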
